A study of Mus musculus with 14 samples.

Results

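The epidermal master transcription factors described here are 10 genes whose proteins set up and maintain surface epidermis: *Trp63* (p63), the AP-2 genes *Tfap2a*, *Tfap2b* and *Tfap2c*, the grainyhead-like genes *Grhl1*, *Grhl2* and *Grhl3*, the OVO-like repressor genes *Ovol1* and *Ovol2*, and *Zfp750* (ZNF750 in human). They were chosen by gene symbol, and all 10 were found among the 54332 genes of the time-course table. All 10 had a mean of at least 1 TPM (transcripts per 1000000 transcripts) over the 10 libraries and entered the test with 13110 genes in all.

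RNA-seq was done on EpdSCs (stem cells of the epidermis between hair follicles) sorted from back skin of CD1 mice with the genotype K14rtTA; TRE-myc-Sox9. In these mice the *Krt14* promoter drives the DOX-dependent activator, so that doxycycline (DOX) switches on MYC-tagged SOX9 in *Krt14*-expressing cells, and D0 cells carry both transgenes without induction. DOX was injected at postnatal day 21 (P21) and continued in the feed. D0 cells were taken at P21, W1 cells at P28, W2 cells at P35 and W6 cells at P63, with 2 biological replicates each, and age therefore rose with time on DOX. The 2 W12 libraries came from newborn skin grafted onto immunocompromised Nude female hosts and induced after healing, so that grafting and 12 weeks of induction cannot be told apart. All cells were negative for CD31, CD45, CD117, CD140a and CD34 and high for CD49f and Ly6A, and all donors were labelled male. With 2 replicates a timepoint, P values measure the spread between these libraries, and no uninduced libraries of the later ages were analysed here.

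The labels name NextSeq or NovaSeq sequencing without saying which library ran on which, while the paper's methods give NovaSeq for its RNA-seq. A platform could not be tested from the labels. The *MYC-SOX9* transgene had 89.6 and 45.6 TPM at D0, 3387 and 3414 at W1, and 606 and 903 at W12. Replicates of a timepoint had a Pearson *r* between 0.958 and 0.988 across genes. D0 replicate 2 went against its label of male, with 4.61 TPM of *Xist* and 0.0278 TPM of the Y-linked gene *Ddx3y*, where D0 replicate 1 had 0.00103 and 32.1 TPM. Both W12 libraries had *Xist* (5.51 and 3.50 TPM) beside *Ddx3y* (10.97 and 12.87 TPM), and *Xist* was at most 0.00665 TPM in the other libraries. A set of 8 immediate-early genes, which cells switch on within minutes of stress, summed to 27519 and 43744 TPM at D0 and to between 4395 and 10697 TPM in every later library.

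The sorted cells had the markers of basal epidermis. The summed TPM of 7 such genes lay between 31777 and 48005 in each library, most of it from *Krt14* and *Krt5*, and that of 2 Merkel cell genes was at most 0.544. The sum of 4 upper hair follicle markers was 1793 and 1921 TPM at D0, between 5501 and 6934 at W1 and W2, 18324 and 8507 at W6, and 3839 and 5334 at W12. That of 5 hair follicle bulge markers was 23.1 and 36.1 TPM at D0, between 67.2 and 84.6 at W1 and W2, and between 32.6 and 60.5 at W6 and W12. At W12, 3 endothelial markers summed to 28.9 and 66.8 TPM, against at most 1.35 elsewhere. Single markers moved within these sums, by the test used for the 10 genes below (limma, adjusted *P* under 0.05). Of the basal genes, *Ly6a* was lower than at D0 at W2, 5 were lower at W6 (*Krt5*, *Itgb4*, *Col17a1*, *Itga6* and *Ly6a*), and 3 were lower (*Krt5*, *Itgb4* and *Col17a1*) and 2 higher (*Itgb1* and *Ly6a*) at W12. Of the upper hair follicle markers, *Krt79* was higher at W1, W2 and W6, *Krt17* at all 4 later timepoints, *Lrig1* was higher at W2 and lower at W12, and *Plet1* did not pass. Of the bulge markers, *Nfatc1* was higher at W1 and W2 and lower at W12, *Tcf7l1* was higher at W2, and *Cd34*, whose product was gated against, was higher at W6 and W12 (16.5 and 32.0 TPM, against 0.0614 and 0.383 at D0). Beside these counts, 5.79%, 9.06%, 18.3% and 17.9% of all genes tested were higher at W1, W2, W6 and W12, and 4.10%, 6.64%, 14.1% and 25.1% were lower. Of these 26 calls of the 16 markers, 13 held whichever of the 10 libraries was left out (*Col17a1* and *Itga6* at W6, *Col17a1*, *Itgb4* and *Krt5* at W12, *Krt79* at W1, W2 and W6, *Krt17* at W6 and W12, *Lrig1* at W12, and *Cd34* at W6 and W12), the other 13 were lost in at least 1 such fit, and 14 further changes passed in at least 1. Among the latter, *Lrig1* at W6 was lower without W6 replicate 1 (−0.81, adjusted *P* = 0.0274) and higher without W6 replicate 2 (0.87, adjusted *P* = 0.0223), and *Itga6* was lower at W1, W2 and W12 without D0 replicate 1 (adjusted *P* = 0.0402, 0.0186 and 0.0058). Without D0 replicate 2, 4 basal genes were lower at W6 and 1 was higher at W12, 1 upper hair follicle marker was higher at W2, and *Nfatc1* at W12 was lost (adjusted *P* = 0.123). The part of these differences in the results was not tested, and changes from D0 are given without D0 replicate 2 where that alters them.

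p63 is the transcription factor without which no stratified epidermis forms, and it keeps basal cells proliferative and attached. AP-2 and grainyhead-like proteins act beside it, the former in setting epidermal identity and the latter in switching on junction and barrier genes and in wound closure. OVOL proteins repress genes, among them those of the mesenchymal state, as cells leave the basal layer, and ZNF750 acts downstream of p63 to start terminal differentiation.

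The sequences below are the 250 bases before a RefSeq start of 3 of these genes, read 5′ to 3′ on the strand of the gene from RefSeq (GRCm38.p6). They are shown because *Grhl1* and *Tfap2b* moved closely together over the time course whereas *Grhl3*, of the same family as *Grhl1*, did not. *Tfap2a* had a slightly higher correlation with *Grhl1* than *Tfap2b* had, but both of its windows lie mostly in annotated exons (204 and 242 of 250 bases) and are not shown. Capitals mark the AP-2 motif GCCNNNGGC, searched on both strands.
Grhl1 at chr12:24572037-24572286 (+ strand): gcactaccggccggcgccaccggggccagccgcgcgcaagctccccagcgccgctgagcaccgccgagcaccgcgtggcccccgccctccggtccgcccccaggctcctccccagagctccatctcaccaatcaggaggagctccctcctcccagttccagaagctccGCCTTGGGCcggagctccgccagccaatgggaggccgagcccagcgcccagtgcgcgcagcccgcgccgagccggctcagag
Tfap2b at chr1:19211804-19212053 (+ strand): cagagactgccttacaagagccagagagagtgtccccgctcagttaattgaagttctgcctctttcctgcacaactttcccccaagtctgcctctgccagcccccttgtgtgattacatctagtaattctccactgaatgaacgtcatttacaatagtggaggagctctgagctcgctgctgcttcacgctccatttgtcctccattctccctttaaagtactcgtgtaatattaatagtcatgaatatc
Grhl3 at chr4:135573633-135573882 (− strand): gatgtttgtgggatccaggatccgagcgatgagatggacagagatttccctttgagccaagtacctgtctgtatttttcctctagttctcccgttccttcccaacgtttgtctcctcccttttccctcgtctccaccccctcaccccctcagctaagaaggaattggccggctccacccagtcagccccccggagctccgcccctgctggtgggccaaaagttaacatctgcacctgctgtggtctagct

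The *Grhl1* window had 75.6% G and C and 27 CpG dinucleotides, the *Tfap2b* window 46.4% and 5, and the *Grhl3* window 56.0% and 8, beside medians of 52.4% and 6 over the 32851 windows of the RefSeq table. The *Tfap2b* window lies in an intron of the annotated gene, before a start downstream of the gene's own, and the last 4 bases of the *Grhl1* window lie within a first exon annotated in GENCODE. RefSeq windows were given for 5 of the 10 genes, with 7 windows in all. Only 1 of the 7, the *Grhl1* window shown, held the AP-2 motif, which 13.7% of all windows held. A further *Grhl1* window, at chr12:24580469-24580718, is not shown. It had 52.0% G and C, 0 CpG dinucleotides and no AP-2 motif. None of the 7 held the grainyhead motif AACCGGTT (0.116% of all windows), the SOX motif AACAAT (9.42%), the GATA motif AGATAA (9.99%) or the AP-1 motif TGANTCA (6.75%). A match describes the letters in these windows and is no evidence of binding.

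*Trp63*, the gene of p63, was the most abundant of the 10 in every library. It lies on GRCm38 at chr16:25683763-25892102 (+ strand), with 8 annotated transcripts, and its gene-level TPM do not separate the isoforms with and without the transactivation domain. *Trp63* had 291 and 654 TPM at D0, 209 and 211 at W1, 275 and 219 at W2, 159.9 and 181 at W6, and 126 and 119 at W12. Both D0 libraries were above every later library, and both W12 libraries were below all others. From D0 its mean was 2.78-fold lower at W6 (change in log2(TPM + 1) of −1.36, standard error 0.31, adjusted *P* = 0.0125) and 3.87-fold lower at W12 (−1.83, standard error 0.31, adjusted *P* = 0.00231; limma with Benjamini-Hochberg adjustment over all genes tested, with an adjusted *P* under 0.05 counted as a change). The changes at W1 (−1.05, adjusted *P* = 0.0721) and W2 (−0.83, adjusted *P* = 0.111) did not pass. In bulk RNA of sorted cells, fewer cells of a type and less RNA per cell cannot be told apart.

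The size of the fall in *Trp63* depended on D0 replicate 2, its highest library and the library at odds with its label. Without that library the change was −1.25 at W12 (adjusted *P* = 0.00197) and −0.77 at W6 (adjusted *P* = 0.0186), and both passed, while those at W1 and W2 were −0.47 and −0.24, with adjusted *P* values of 0.133 and 0.377. With D0 replicate 2 kept, the W6 change was lost without W6 replicate 1 (−1.27, adjusted *P* = 0.0536). Without D0 replicate 1 instead, the falls at W1 (−1.64, adjusted *P* = 0.00173) and W2 (−1.41, adjusted *P* = 0.0019) passed as well. Among later timepoints, *Trp63* was lower at W12 than at W2 (−1.001, adjusted *P* = 0.0311), while neighbouring steps from W2 to W6 (−0.53, adjusted *P* = 0.264) and from W6 to W12 (−0.47, adjusted *P* = 0.329) did not pass. The difference from W2 was lost without either library of W2 or W12, and with median-ratio scaling (adjusted *P* = 0.0646). The neighbouring steps keep their size without a D0 library, and only the spread shared by all timepoints is altered. Crossing the threshold in such a fit therefore adds nothing about W2, W6 or W12. By its mean *Trp63* ranked 319 among the genes of the table at D0 and 1286 at W12.

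**Figure D1:**
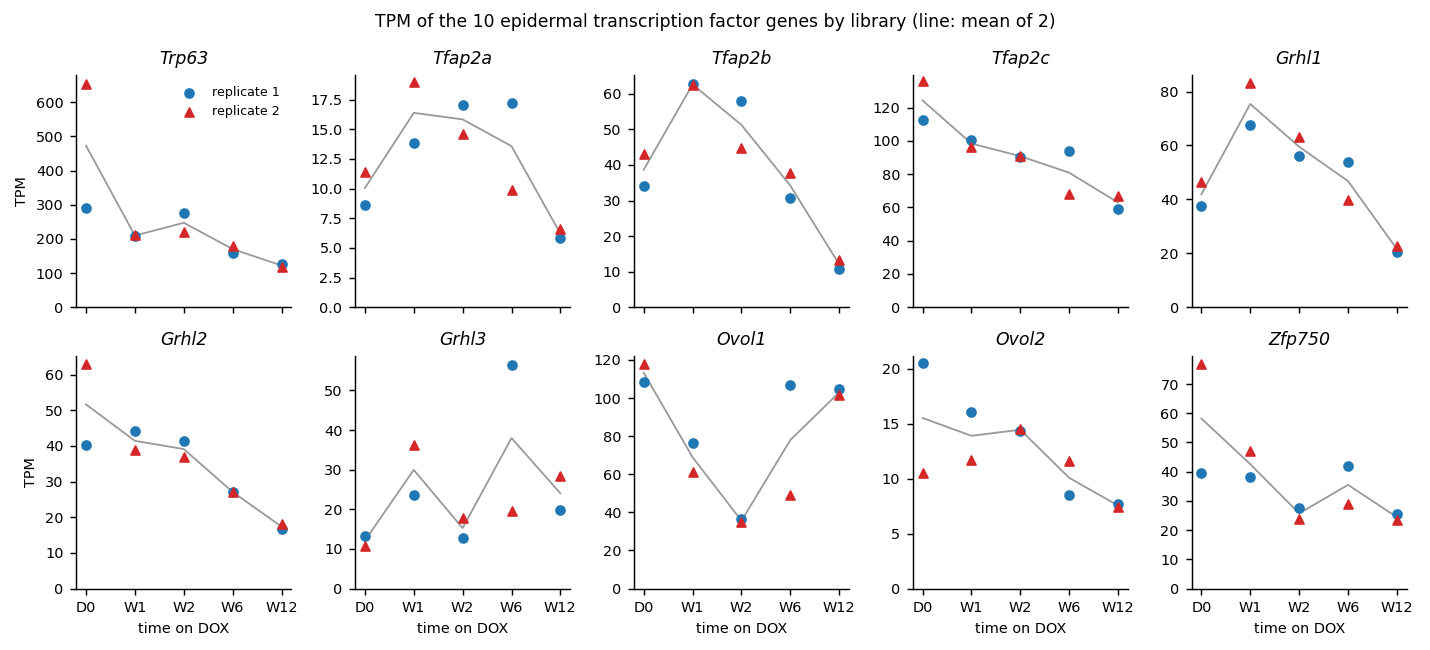
TPM of each of the 10 genes (vertical axes, each from 0) at D0, W1, W2, W6 and W12 (horizontal axis, timepoints evenly spaced), with circles for replicate 1, triangles for replicate 2 and a line through the mean of both. *Trp63* is highest in D0 replicate 2, *Tfap2b* and *Grhl1* peak at W1 and are lowest at W12, and *Ovol1* is lowest at W2 and has 105 and 101 TPM at W12.

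Among *Tfap2a*, *Tfap2b* and *Tfap2c*, *Tfap2c* held most of the transcripts and had a lower mean at each successive timepoint, whereas *Tfap2a* and *Tfap2b* had their highest means at W1 and their lowest at W12. *Tfap2c* (chr2:172549593-172558622, + strand) had 113 and 136 TPM at D0, 101 and 96.3 at W1, 90.6 and 91.1 at W2, 93.8 and 67.9 at W6, and 59.3 and 66.7 at W12. Both D0 libraries were above all later libraries and both W12 libraries were below all others, with W6 replicate 2 closest to them. The fall from D0 passed at W6 (−0.63, standard error 0.18, adjusted *P* = 0.0266) and W12 (−0.97, standard error 0.18, adjusted *P* = 0.00303), where the mean was 1.97-fold lower. Without D0 replicate 2 the W12 change passed (−0.83, adjusted *P* = 0.0193) and the W6 change did not (−0.49, adjusted *P* = 0.131). The W6 change was also lost without W6 replicate 2 (−0.40, adjusted *P* = 0.117).

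*Tfap2b* (chr1:19208914-19238576, + strand) had 34.2 and 43.2 TPM at D0, 62.8 and 62.5 at W1, 57.9 and 44.7 at W2, 30.8 and 37.6 at W6, and 10.7 and 13.4 at W12. The W1 and W2 libraries lay above D0, the W6 libraries overlapped D0, and the W12 libraries were far below every other. Against D0, the W1 change of 0.69 (standard error 0.20) had an adjusted *P* of 0.0618, and the W12 change was −1.60 (standard error 0.20, adjusted *P* = 0.000448), a mean 3.20-fold lower. *Tfap2b* also fell from W6 to W12 (−1.43, standard error 0.20, adjusted *P* = 0.00235), and from its peak at W1 to W12 its mean was 5.19-fold lower (−2.29, standard error 0.20, adjusted *P* = 7.75e-05). Without D0 replicate 2 the W12 change from D0 was −1.44 (adjusted *P* = 0.00374).

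*Tfap2a* (chr13:40715302-40738376, − strand) was the least abundant of the 3, with 8.65 and 11.4 TPM at D0, 13.8 and 19.0 at W1, 17.1 and 14.6 at W2, 17.2 and 9.91 at W6, and 5.84 and 6.55 at W12. W1 and W2 lay above D0 and W12 below it, and no change from D0 passed (adjusted *P* from 0.103 to 0.332). It was lower at W12 than at W6 (−0.97, standard error 0.27, adjusted *P* = 0.0384), which rested on W6 replicate 1 (−0.60, adjusted *P* = 0.159 without it) and was also lost without either library of W1, W2 or W12 (adjusted *P* from 0.0518 to 0.195) and with median-ratio scaling (0.0845). It was also lower at W12 than at W1 (−1.26, adjusted *P* = 0.00623) and W2 (−1.22, adjusted *P* = 0.00742), with adjusted *P* values of 0.0541 without W1 replicate 2 for the former and of 0.0556 and 0.054 without W2 replicate 1 or W12 replicate 1 for the latter. The 3 genes summed to 155 and 191 TPM at D0 and to 75.9 and 86.6 TPM at W12. The share of *Tfap2c* in that sum was 72.4% and 71.4% at D0, 56.7% and 54.2% at W1, and 78.1% and 77.0% at W12, so that the makeup of the 3 at W12 was nearer to D0 than to W1 while their total was lower. With the further AP-2 gene *Tfap2e* in the sum, the share of *Tfap2c* was 63.6% and 62.4% at D0, 51.6% and 48.8% at W1, 47.5% and 53.1% at W2, and 73.7% and 72.9% at W12.

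The grainyhead-like genes went in different directions. *Grhl2* fell, and *Grhl1* rose and then fell. *Grhl3* lay above D0 in both libraries of W1, W6 and W12, though only its W6 change passed the test. *Grhl2* (chr15:37233036-37363569, + strand), the family member most tied to epithelial junctions, had 40.3 and 62.9 TPM at D0, 44.1 and 38.8 at W1, 41.3 and 36.9 at W2, 27.0 and 27.1 at W6, and 16.6 and 18.1 at W12. W1 and W2 overlapped D0, and W6 and then W12 lay below all earlier libraries. The fall from D0 passed at W6 (−0.87, standard error 0.21, adjusted *P* = 0.0134) and W12 (−1.49, standard error 0.21, adjusted *P* = 0.000811), with means 1.91-fold and 2.97-fold lower. Without D0 replicate 2 the W12 change was −1.17 (adjusted *P* = 0.00248) and the W6 change was −0.56 (adjusted *P* = 0.0536).

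*Grhl1* (chr12:24572283-24617391, + strand), which activates desmosomal cadherin genes, had 37.5 and 46.3 TPM at D0, 67.6 and 83.2 at W1, 56.1 and 62.98 at W2, 54.0 and 39.6 at W6, and 20.7 and 22.6 at W12. Both W1 libraries were above all others, W6 overlapped D0, and both W12 libraries were below all others. At W1 *Grhl1* was higher than at D0, with a mean 1.80-fold as high (0.83, standard error 0.19, adjusted *P* = 0.0299), and at W12 it was 1.94-fold lower (−0.92, standard error 0.19, adjusted *P* = 0.00598). The W1 rise kept an adjusted *P* of 0.0391 without D0 replicate 2, was 0.0848 without D0 replicate 1, lay between 0.0567 and 0.229 when any 1 library of W1, W2 or W12 was left out, and was 0.0604 after median-ratio scaling of the libraries. From W6 to W12 *Grhl1* fell (−1.06, standard error 0.19, adjusted *P* = 0.00801, or 0.0665 without W12 replicate 1), and from W1 to W12 its mean was 3.49-fold lower (−1.75, adjusted *P* = 0.000274).

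*Grhl3* (chr4:135541888-135573630, − strand), a barrier and wound-repair factor most active in upper layers, had 13.4 and 10.8 TPM at D0, 23.6 and 36.3 at W1, 12.7 and 17.8 at W2, 56.5 and 19.5 at W6, and 19.8 and 28.3 at W12. W2 overlapped D0, the other later timepoints did not, and W6 replicate 1 stood far above every other library. The changes from D0 at W1 (1.22, adjusted *P* = 0.127) and W12 (0.92, adjusted *P* = 0.124) did not pass. The W6 change passed (1.40, standard error 0.44, adjusted *P* = 0.0408) but not without W6 replicate 1 (0.65, adjusted *P* = 0.174) or without D0 replicate 2 (1.26, adjusted *P* = 0.177). It was also lost without D0 replicate 1 or any 1 library of W1, W2 or W12 (adjusted *P* from 0.0537 to 0.0682), so that it held only without W6 replicate 2 among the 10 fits that left out a library. With median-ratio scaling its adjusted *P* was 0.0532, and with all genes above 0 TPM tested it was 0.144. W6 replicate 1 also had the highest sum of upper hair follicle markers, 18324 TPM against 8507 in W6 replicate 2, and the part of these cells in the *Grhl3* value was not tested. The share of *Grhl3* in the family's summed TPM was 14.7% and 9.01% at D0 and 34.7% and 41.0% at W12, while that of *Grhl2* was 44.2% and 52.4% at D0 and 29.1% and 26.3% at W12.

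**Figure D2:**
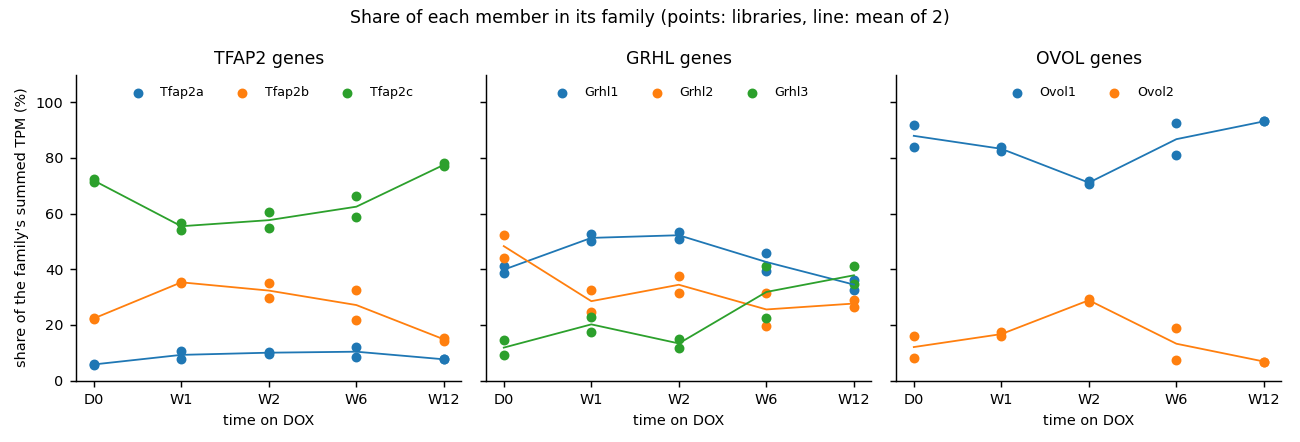
Share of each gene in the summed TPM of the described genes of its family (vertical axis, %), which are 3 AP-2, 3 grainyhead-like and 2 OVO-like genes, at each timepoint (horizontal axis), with a point for each library and a line through the mean of 2. The *Tfap2c* share dips at W1 and W2 and is 78.1% and 77.0% at W12, the *Grhl3* share is 34.7% and 41.0% at W12, and the *Ovol2* share peaks at W2 at 28.3% and 29.4%.

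Of the OVO-like repressors, *Ovol1* was lower at W2 than at D0 and higher at W12 than at W2, and *Ovol2* was lower at W12 than at D0. *Ovol1* (chr19:5549136-5560646, − strand) had 109 and 118 TPM at D0, 76.4 and 61.4 at W1, 36.4 and 34.8 at W2, 107 and 49.3 at W6, and 105 and 101 at W12. Both W2 libraries were below all others, the W6 replicates lay far apart, and the W12 libraries were close to, though below, those of D0. At W2 the mean was 3.18-fold lower than at D0 (−1.64, standard error 0.30, adjusted *P* = 0.00811, or −1.58 with an adjusted *P* of 0.0408 without D0 replicate 2). That change had an adjusted *P* of 0.0605 without W2 replicate 2. At W12 it was 2.89-fold higher than at W2 (1.51, standard error 0.30, adjusted *P* = 0.00429), and the difference from D0 was −0.14 (standard error 0.30, adjusted *P* = 0.741). At W6 the change from D0 did not pass (−0.63, adjusted *P* = 0.134), but it did without W6 replicate 1 (−1.18, adjusted *P* = 0.00382).

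*Ovol2* (chr2:144305175-144332146, − strand), a repressor that protects the epithelial state, had 20.5 and 10.5 TPM at D0, 16.0 and 11.7 at W1, 14.4 and 14.5 at W2, 8.52 and 11.6 at W6, and 7.66 and 7.44 at W12. All earlier timepoints overlapped D0, whose replicates spanned most of the gene's range, and W12 lay below every other library. The W12 change was −0.88 (standard error 0.30, adjusted *P* = 0.0403). It was −1.33 (adjusted *P* = 0.00831) without D0 replicate 2 and −0.43 (adjusted *P* = 0.199) without D0 replicate 1, and was lost when any 1 library of W1, W2 or W12 was left out (adjusted *P* from 0.0507 to 0.143). Its adjusted *P* was 0.0531 with median-ratio scaling and 0.0891 with quantile normalization. At W2, where *Ovol1* was lowest, *Ovol2* made up 28.3% and 29.4% of the TPM of the pair, against 6.82% and 6.84% at W12.

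*Zfp750* (chr11:121510978-121519333, − strand), the differentiation factor downstream of p63, had 39.4 and 77.0 TPM at D0, 38.1 and 47.1 at W1, 27.6 and 23.9 at W2, 42.0 and 29.0 at W6, and 25.4 and 23.5 at W12. W2 and W12 lay below both D0 libraries, and W1 and W6 overlapped D0. The W2 change (−1.07, standard error 0.30, adjusted *P* = 0.0445) and the W12 change (−1.14, standard error 0.30, adjusted *P* = 0.0155) passed, with means 2.26-fold and 2.38-fold lower. Both rested on D0 replicate 2, without which they were −0.60 (adjusted *P* = 0.162) and −0.67 (adjusted *P* = 0.0809). The W2 change was also lost when any 1 library of W1, W2 or W12 was left out (adjusted *P* from 0.0676 to 0.227), and the W12 change without either W12 library (0.0656 and 0.0819). W12 and W2 overlapped, and their difference of −0.07 (adjusted *P* = 0.875) turned to 0.085 with median-ratio scaling and to 0.12 with quantile normalization.

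Counted over the 10 genes, 1 was higher and none lower at W1 than at D0, where 9.89% of all genes tested changed, 5.79% higher and 4.10% lower. Of all genes that changed at W1, 58.6% were higher in TPM and 47.4% after median-ratio scaling, under which none of the 10 passed. At W2, 2 of the 10 were lower and none higher, beside 15.7% of all genes (9.06% higher and 6.64% lower). At W6, 3 were lower and 1 higher, beside 32.4% of all genes (18.3% higher and 14.1% lower). At W12, 7 were lower and none higher, beside 43.0% of all genes (17.9% higher and 25.1% lower). In a fit of only the 4 libraries of D0 and W12, 5 were lower and 1 higher. Median-ratio scaling moved the share of higher genes among all that changed from 41.7% to 50.3% at W12, from 57.7% to 50.5% at W2 and from 56.5% to 51.3% at W6, and under it 6 of the 10 were lower at W12, all of the 7 but *Ovol2*. The W12 libraries did not overlap those of D0 for any of the 10 genes, 9 of them lower and 1 higher, and with 2 libraries a group the same held for 74.7% of all genes tested (32.8% higher and 41.9% lower). Their median change at W12 was −0.94, and that of all genes tested was −0.08. Without D0 replicate 2, 6 of the 10 were lower at W12 (all of the 7 but *Zfp750*), 2 at W6 (*Trp63* and *Ovol2*) and 1 at W2 (*Ovol1*). Without D0 replicate 1, the falls of *Grhl2* at W2 (−0.68, adjusted *P* = 0.0271) and *Zfp750* at W6 (−1.12, adjusted *P* = 0.0101) passed as well. With a W6 library left out, *Tfap2a* (lower) and *Grhl3* (higher) at W12 and *Grhl3* (higher) and *Ovol1* (lower) at W1 also crossed the threshold. Those changes keep their size in such fits, as only the spread shared by all timepoints is altered. In the F test over the 4 later timepoints, 8 of the 10 varied, all but *Grhl3* (adjusted *P* = 0.0797) and *Ovol2* (adjusted *P* = 0.092), beside 57.5% of all genes.

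**Figure D3:**
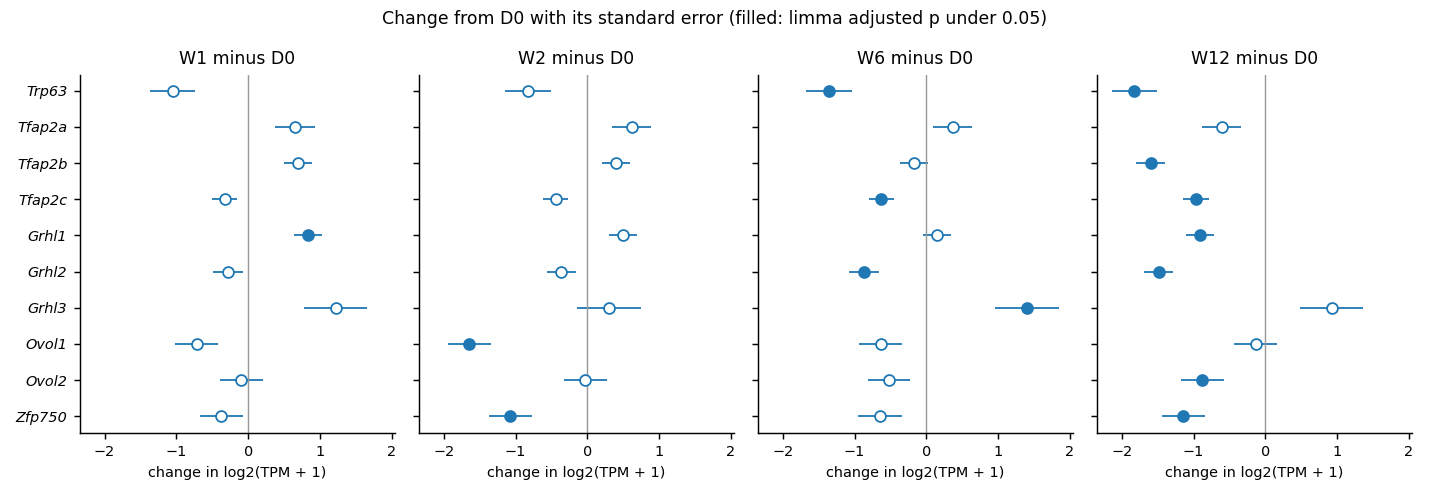
Change in log2(TPM + 1) from D0 (horizontal axis) of the 10 genes (rows) at W1, W2, W6 and W12, with bars of 1 standard error on each side and filled points for adjusted *P* under 0.05 (limma). One point is filled at W1 (*Grhl1*, 0.83), and 7 are filled at W12, all to the left of 0, from −0.88 for *Ovol2* to −1.83 for *Trp63*.

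Between later timepoints, none of the 10 passed from W2 to W6 with limma (4 had an unadjusted *P* under 0.05), where 16.3% of all genes changed (7.99% higher and 8.31% lower). The same count of 0 was found with median-ratio scaling, quantile normalization, eBayes without a trend and the replicate block. Without a D0 library, *Trp63* and *Grhl2* crossed the threshold from W2 to W6 with their changes unaltered, as only the shared spread moved. Without W6 replicate 2 the change was 1.84 for *Grhl3* and 1.56 for *Ovol1*. From W6 to W12, 3 of the 10 (*Tfap2a*, *Tfap2b* and *Grhl1*) were lower and none higher, beside 20.2% of all genes (6.66% higher and 13.5% lower). *Trp63* and *Grhl2* likewise crossed the threshold without a D0 library, at unaltered changes. Without W6 replicate 2 the change was −1.22 for *Grhl3* and −0.57 for *Tfap2c*, and without W6 replicate 1 it was 1.05 for *Ovol1*. The comparisons of W12 with W1 and W2 were chosen later, with the values of the planned comparisons in view. From W1, 5 of the 10 were lower at W12 (*Tfap2a*, *Tfap2b*, *Tfap2c*, *Grhl1* and *Grhl2*), beside 44.4% of all genes (15.7% higher and 28.7% lower). The difference of *Tfap2c* from W1 was lost without W12 replicate 1 or either W1 library, and with median-ratio scaling (adjusted *P* = 0.0955). *Trp63*, *Ovol2* and *Zfp750* (lower) crossed the threshold without a D0 library, and *Ovol1* (higher) without a W6 library, again at unaltered changes. From W2, 7 were lower and *Ovol1* was higher, beside 42.9% of all genes (15.7% higher and 27.2% lower). Among these, *Tfap2c* (−0.52, adjusted *P* = 0.0404) and *Ovol2* (−0.85, adjusted *P* = 0.0454) were lost when any 1 library of W1, W2 or W12 was left out, with adjusted *P* values up to 0.183 and 0.153. In these comparisons of W12 with W6, W1 and W2, median-ratio scaling moved the median change of all genes from −0.16 to −0.01 for W12 against W6, from −0.15 to 0.02 against W1 and from −0.12 to 0.02 against W2. The share of higher genes among all that changed moved likewise, from 33.0% to 55.0%, from 35.4% to 50.8% and from 36.6% to 49.9%.

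Over the 10 libraries, log2(TPM + 1) of *Grhl1* had a Pearson *r* of 0.95 with *Tfap2a* and 0.93 with *Tfap2b*. *Grhl2* had an *r* of 0.92 with *Tfap2c* and 0.90 with *Trp63*, and *Trp63* had −0.64 with *Grhl3*. *Ovol1* had −0.52 with *Tfap2b*. The points share their timepoints, and these values are descriptions. By the same measure over all genes tested, the genes most like each were *Fmo5*, *Ptger4* and *Foxj3* for *Trp63* (*r* from 0.973 to 0.978), *Mark4*, *S1pr5* and *Dnajc30* for *Tfap2a* (0.974 to 0.985), *L3mbtl3*, *Smg6* and *Brd3* for *Tfap2b* (0.986 to 0.993), and *Tjp1*, *Ythdf1* and *Med26* for *Tfap2c* (0.977 to 0.990). They were *Mall*, *Kank1* and *Lrp5* for *Grhl1* (0.984 to 0.997), *Aff1*, *Frmd6* and *Btbd11* for *Grhl2* (0.986 to 0.992), and *Tmem181a*, *Cdc34* and *Lrrc20* for *Grhl3* (0.917 to 0.944). For *Ovol1* they were *Capza1-ps1*, *Nepro* and *Gm20400* (0.907 to 0.949), of which *Capza1-ps1* is a pseudogene that can share reads with its parent gene. For *Ovol2* they were *Cdk6*, *Fam234b* and *Abcb9* (0.906 to 0.927), and for *Zfp750* *Eml4*, *Arf6* and *Nipal3* (0.923 to 0.936).

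Other members of these families were mostly lower at W12 too, where 25.1% of all genes tested were lower and 17.9% higher. Of 8 such genes, 6 were tested, and *Tfap2d* and *Ovol3* were listed at 0 in all 10 libraries. At W12, 5 of the 6 were lower than at D0 and 1 was higher, with a median change of −1.07. *Tfap2e*, a further AP-2 gene, had 21.7 and 27.5 TPM at D0 and 4.63 and 4.79 at W12 (−2.16, standard error 0.22, adjusted *P* = 0.000161), and the p63 relatives *Trp53* and *Trp73* changed by −1.12 (adjusted *P* = 0.00208) and −1.34 (adjusted *P* = 0.0132). *Trp73* had 8.35 and 18.3 TPM at D0 and 3.65 and 5.02 at W12, and its change was lost without D0 replicate 2 (−0.82, adjusted *P* = 0.0728) or W12 replicate 1 (−1.16, adjusted *P* = 0.0915). *Ubp1* and *Tfcp2*, of the wider grainyhead family, changed by −1.02 (adjusted *P* = 0.000628) and −0.76 (adjusted *P* = 0.0395). The change of *Tfcp2* was lost without D0 replicate 2 (−0.50, adjusted *P* = 0.216) or any 1 library of W2 or W12 (adjusted *P* from 0.0572 to 0.155), so that 3 of the 6 were lower at W12 without D0 replicate 2, and 3 without W12 replicate 1. *Tfcp2l1*, of the same branch, rose from 0.155 and 0.210 TPM at D0 to 2.96 and 2.76 at W1 and 6.17 and 9.86 at W6, and had 1.54 and 2.43 TPM at W12. It was higher than D0 at each later timepoint, with a change of 2.90 at W6 (standard error 0.26, adjusted *P* = 0.000162).

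Among 17 further epidermal transcription factors tested, 9 were lower and 2 higher at W12 than at D0, beside the same shares of all genes, with a median change of −0.61. Without D0 replicate 2, 8 were lower and 3 higher, and without either W12 library 6 were lower and 2 higher. *Gata3*, which cooperates with p63 in basal cells, had 241 and 346 TPM at D0, 171 and 116 at W2, 53.1 and 94.2 at W6, and 27.2 and 27.8 at W12. Its fall passed at W2 (−1.03, standard error 0.29, adjusted *P* = 0.0468), W6 (−2.01, adjusted *P* = 0.00167) and W12 (−3.35, adjusted *P* = 8.24e-05). The W2 change was lost without D0 replicate 2 (−0.78, adjusted *P* = 0.188) and when any 1 library of W1, W2 or W12 was left out (adjusted *P* from 0.0726 to 0.283), and the W12 change was −3.09 (adjusted *P* = 0.00101) without D0 replicate 2. *Satb1*, a chromatin organiser that p63 activates, fell from 27.0 and 39.8 TPM to 1.86 and 1.33 at W12 (−3.71, standard error 0.35, adjusted *P* = 0.000106), and *Klf4*, a barrier factor, from 317 and 486 to 66.7 and 75.2 (−2.45, standard error 0.29, adjusted *P* = 0.000352). *Prdm1*, the gene of the repressor BLIMP1, rose from 0.386 and 0.844 TPM to 5.56 and 10.7 (2.46, standard error 0.41, adjusted *P* = 0.00199). The other gene that was higher, *Ehf*, is an ETS factor of differentiating epithelia and was named after its values were seen, with 14.9 and 19.0 TPM at D0 and 104 and 88.9 at W12.

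Genes known to be activated by p63 were mostly lower from W6 on. Of 17 tested, 2 were lower than D0 at W2, 13 at W6 and 13 at W12 (6.64%, 14.1% and 25.1% of all genes), with none higher at these 3 timepoints, and their median change at W12 was −1.69 beside −0.08 over all genes. At W1, 1 was higher (*Dsp*) and 1 lower (*Fgfr2*), beside 5.79% and 4.10% of all genes. Neither W1 call held in every fit that left out a library. The numbers lower were 1 at W2, 9 at W6 and 12 at W12 without D0 replicate 2, and both W2 calls were lost without W2 replicate 2. *Krt15*, a keratin of basal cells, had 11241 and 11928 TPM at D0, 7757 and 6166 at W2, 429 and 1350.1 at W6, and 322 and 242 at W12 (−5.37 from D0, standard error 0.44, adjusted *P* = 5.73e-05). The receptor gene *Fgfr2* fell as early as W1 (−1.53, standard error 0.26, adjusted *P* = 0.00767, or 0.0768 without W1 replicate 2) and was at −2.77 at W12 (adjusted *P* = 0.000106). The Notch ligand gene *Jag2* changed by −1.66 at W6 (adjusted *P* = 0.00496) and −2.67 at W12 (adjusted *P* = 0.000335). *Krt5* and *Krt14* are the keratin pair of the basal layer. At W12 *Krt5* was lower than at D0 (−0.95, adjusted *P* = 0.0027), and *Krt14* did not pass (0.26, adjusted *P* = 0.308), with 29902 and 31096 TPM at D0 and 35371 and 37666 at W12. *Krt14* can share reads with other type I keratin genes of similar sequence.

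Genes known to be activated by grainyhead-like factors split at W12. Of 10 tested, 6 were lower and 3 higher than at D0 (6 and 2 without D0 replicate 2), beside 25.1% and 17.9% of all genes, with a median change of −1.02. The adhesion gene *Cdh1* (E-cadherin) had 274 and 365 TPM at D0, 514 and 440.3 at W1, 551 and 466 at W2, 229 and 145 at W6, and 77.3 and 89.1 at W12 (−1.92 from D0, standard error 0.24, adjusted *P* = 0.000454). *Ppl*, whose product periplakin links keratin to the cell border, changed by −2.27 (standard error 0.30, adjusted *P* = 0.00066). *Cldn4*, a tight junction gene, rose from 1.90 and 3.28 TPM to 21.8 and 71.1 (3.53, standard error 0.59, adjusted *P* = 0.00199). *Tgm1*, which encodes a crosslinking enzyme of the cornified envelope, rose from 1.49 and 0.833 TPM to 11.2 and 15.6 (2.74, standard error 0.41, adjusted *P* = 0.00123).

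Of 4 partners of AP-2 proteins, 3 were lower at W12 than at D0 and none higher, beside 25.1% and 17.9% of all genes, with a median change of −0.94. At W1, 2 were higher and none lower (5.79% and 4.10% of all genes), and both calls were lost without D0 replicate 2 or W1 replicate 2. *Kctd15*, an inhibitor of AP-2 activity, had 17.1 and 15.0 TPM at D0, 27.4 and 32.0 at W1, and 8.10 and 6.54 at W12, changing by 0.85 at W1 (standard error 0.16, adjusted *P* = 0.014, but 0.0529 without D0 replicate 2 and 0.135 without W1 replicate 2) and −1.04 at W12 (adjusted *P* = 0.00154). The related *Kctd1* changed by −1.20 at W12 (adjusted *P* = 0.005). The coactivator genes *Cited4* and *Cited2* rose at W1 (1.91, adjusted *P* = 0.0419) and at W2 (0.97, adjusted *P* = 0.0276), and at W12 *Cited2* was below D0 (−0.84, adjusted *P* = 0.0203) while *Cited4* did not pass (−0.27, adjusted *P* = 0.683). The *Cited4* rise was lost when any 1 library of D0, W1 or W12 was left out (adjusted *P* from 0.0733 to 0.215), the *Cited2* rise without D0 replicate 2 (0.104) or either W2 library (0.16 and 0.105), and the *Cited2* fall without D0 replicate 1 (0.0877) or W12 replicate 1 (0.127). Of 5 partners of ZNF750, 3 were lower than at D0 at W12 and none higher, with a median change of −0.83. They were *Klf4* and the corepressor genes *Rcor1* (−1.05, adjusted *P* = 0.00206) and *Ctbp1* (−0.83, adjusted *P* = 0.00314). The demethylase gene *Kdm1a* changed by −0.45 and did not pass (adjusted *P* = 0.0593).

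Several late differentiation genes, of the kind that ZNF750 is known to activate, were higher than at D0 at later timepoints. Of 10 tested, 4 were higher and 1 lower at W2, and 7 higher and 1 lower at W6. At W12, 4 were higher and 1 lower, with a median change of 0.45. Of all genes, 9.06%, 18.3% and 17.9% were higher and 6.64%, 14.1% and 25.1% lower at W2, W6 and W12. The gene that was lower was *Cers3* at W2 and W6 and *Lor* at W12. The numbers higher were 3, 5 and 4 without D0 replicate 2, and 2 at W2 without W2 replicate 2. *Ivl* (involucrin) had 0.963 and 1.01 TPM at D0 and 13.0 and 13.1 at W12 (2.82, standard error 0.23, adjusted *P* = 5.98e-05), and *Spink5*, a protease inhibitor of the barrier, had 3.02 and 4.34 and then 23.5 and 22.7 (2.38, adjusted *P* = 0.000966). *Alox12b*, a barrier lipid enzyme gene, changed by 2.23 (adjusted *P* = 0.0006). *Lor* (loricrin) went the other way, from 15.4 and 19.4 TPM to 2.00 and 2.05 (−2.60, standard error 0.43, adjusted *P* = 0.0019). The summed TPM of 5 suprabasal markers, some of them in this list, lay between 1262 and 2495 in every library, with both D0 libraries, 2471 and 1262, near the ends of that range. Among them, *Sbsn* was higher than at D0 at W1, W6 and W12, with 204 and 105 TPM at D0 and 337 and 336 at W12. *Krt1* and *Krt10* did not pass against D0.

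Of 8 mesenchymal genes that OVOL proteins and GRHL2 are known to oppose, 2 had a mean of at least 1 TPM. *Snai2* did not pass at W12 (−0.18, adjusted *P* = 0.685, or −0.76 and 0.0275 without D0 replicate 1), and *Vim*, a filament gene of mesenchymal cells, rose from 0.694 and 0.975 TPM at D0 to 53.5 and 104 at W12 (5.37, standard error 0.43, adjusted *P* = 5.03e-05), after 1.57 and 4.14 at W6. *Zeb1* had 1.73 and 4.44 TPM at W12 and at most 0.185 elsewhere. In the same 2 libraries the endothelial gene *Pecam1* (CD31) had 26.1 and 59.8 TPM, *Cd74* 102 and 124, and the fibroblast gene *Dcn* 13.2 and 27.2, though *Dcn* was highest in W6 replicate 2, at 51.2 TPM, where *Vim* had 4.14, while the other 5 of 6 immune markers and 4 of 6 fibroblast markers (*Lum*, *Pdgfra*, *Col3a1* and *Col1a1*) were under 1 TPM in every library. The part of such cells in the *Vim* and *Zeb1* values was not tested.

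**Figure D4:**
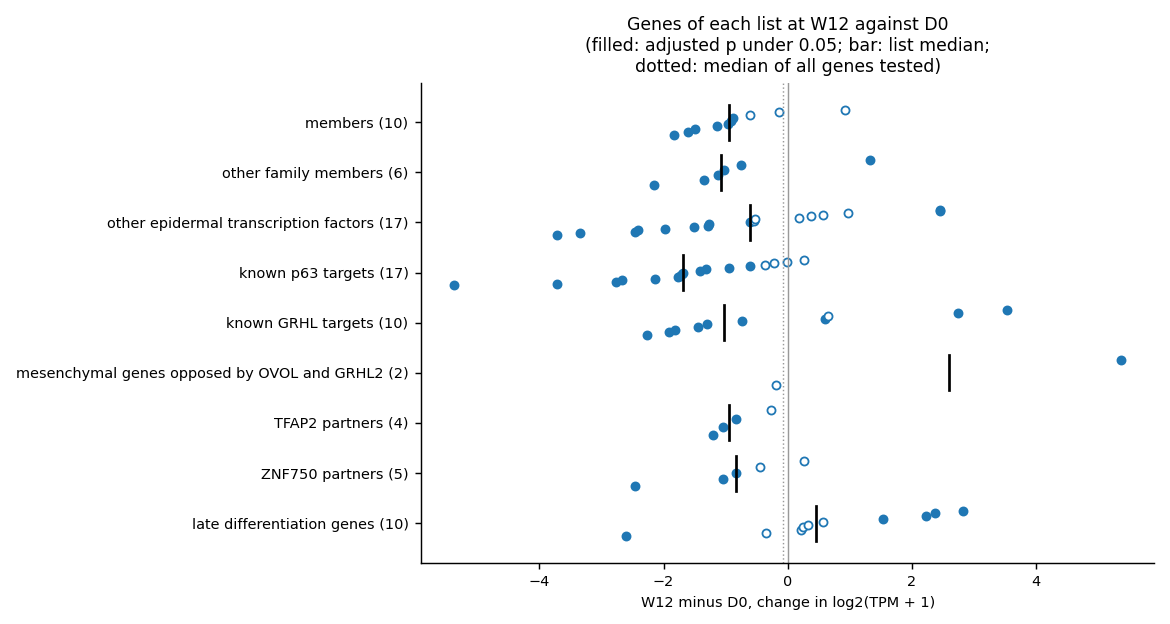
Change in log2(TPM + 1) from D0 to W12 (horizontal axis) of each tested gene, by list (rows, number tested in brackets), with filled points for adjusted *P* under 0.05 (limma), a black bar at each list's median and a dotted line at the median of all genes tested, −0.08. The median is −0.94 for the 10 genes and −1.69 for known p63 targets, and late differentiation genes lie mostly to the right of 0.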

How the data were processed

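The authors trimmed reads with Skewer, quantified transcripts with Salmon 1.4.0 against GENCODE transcripts of GRCm38 extended by the transgene and summed them to genes with Tximport 1.12.3. They deposited TPM per gene, which sum to 1000000 in each library and carry no depth, so the depth and counting error are unknown. The authors' placode table holds only the results of their own comparison and was not used, which leaves out 4 of the 14 samples.

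Genes whose mean reached 1 TPM were tested on log2(TPM + 1), a scale that understates changes of low genes. limma 3.58.1 in R 4.3.3 fitted the 5 timepoint means over 10 libraries, with eBayes and a trend, and Benjamini-Hochberg adjustment over all genes. The error of a gene was shared by all timepoints. Leaving out a library of a timepoint that is not compared therefore alters the error and leaves the change itself the same. The step was tested on simulated data. Python 3.11.15 with pandas 2.3.3 and matplotlib 3.10.9 served for the rest. Positions are from GENCODE M21 (GRCm38).

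The genes and lists were chosen with earlier results of these data known. Named are all 10 members, other family members, the 4 genes of each list with the largest W12 change from D0, *Gata3*, *Krt5* and *Krt14*, and the 3 genes most like each member. Alternatives were a pseudocount of 0.1, other filters, scalings and fits, a replicate block and each library left out. Leaving out libraries for the genes of the lists and for markers, and crossing the replicate numbers, were chosen after seeing the data.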

Additional observations from a re-analysis of the deposited data

Results flagged for a closer look

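For some of the 10 genes the change from D0 differed between timepoints by the test of the difference itself (limma, adjusted *P* under 0.05). As these pairs of changes share the D0 libraries, the difference equals the direct comparison of the later timepoints. The change from D0 at W12 was below that at W6 by −0.97 on the log2 scale for *Tfap2a*, −1.43 for *Tfap2b* and −1.06 for *Grhl1*.

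It was below that at W1 by −1.26 for *Tfap2a*, −2.29 for *Tfap2b*, −0.64 for *Tfap2c*, −1.75 for *Grhl1* and −1.21 for *Grhl2*. It was below that at W2 by −1.001 for *Trp63*, −1.22 for *Tfap2a*, −1.996 for *Tfap2b*, −0.52 for *Tfap2c*, −1.42 for *Grhl1*, −1.13 for *Grhl2* and −0.85 for *Ovol2*. *Ovol1* alone of these went the other way, with a W12 change 1.51 above that at W2.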

How the results depend on the processing

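Each comparison was refitted under every alternative, except that crossed replicate numbers were tried only for W1 and W6 against D0 and W12 against W6. Of the members' single changes, 1303 refitted values kept direction and side of the threshold, 110 lost and 41 gained significance, and 16 turned sign. Depth is unknown in TPM, and 2 replicates a timepoint limit the power.

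Testing all genes with a TPM above 0, in which more genes share the adjustment, gave 606 genes at W1, 1011 at W2 and 940 from W2 to W6, in place of 1296, 2058 and 2137, and 0 members at W1 and W2, 1 at W6 (*Grhl2*), 5 for W12 against W2 and 4 in the F test. With only the 4 libraries of a comparison, 411, 1086 and 1094 genes changed from D0 at W1, W2 and W6 (4251 in the report), 966 from W2 to W6 and 887 from W6 to W12 (2642), with 0 members at W1, 1 at W2, 0 at W6 and 9 for W12 against W1. For W12 against D0 such a fit gave 6 members, 5 lower and 1 higher. Median-ratio scaling gave 0 members at W1, lost *Grhl3* at W6 and gave 5 for W12 against W2. Without a trend, 1 member passed at W2, and a mean of at least 5 TPM gave 1 (*Ovol1*) from W2 to W6.

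The replicate numbers come from different mice and do not pair them. Same-number correlations lay between −0.129 and 0.0934. With the replicate block, 1396 genes changed from W2 to W6 and 1 member at W2, *Ovol1*, and *Grhl3* was lost at W6 (adjusted *P* = 0.0594). With crossed numbers, where the correlation was below −0.1, 3 members passed at W6, without *Grhl3* (adjusted *P* = 0.0543), and 3 from W6 to W12.

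Leaving out each library in turn gave 377 to 1773 genes at W1, 652 to 2647 at W2, 2356 to 5047 at W6, 3362 to 6291 at W12, 207 to 3179 from W2 to W6, 761 to 3223 from W6 to W12, 3645 to 6486 for W12 against W1, 3304 to 6334 against W2 and 5008 to 8145 in the F test. Members passing were 0 to 3, 0 to 4, 2 to 4, 5 to 9, 0 to 2, 1 to 5, 3 to 8, 4 to 8 and 5 to 9 in the same order. Some single changes turned sign when a library was left out, with these ranges. At W1 against D0 they were −0.59 to 0.035 for *Grhl2* (highest without D0 replicate 2), −0.55 to 0.36 for *Ovol2* (0.36 without D0 replicate 1, 0.12 without W1 replicate 2) and −0.85 to 0.10 for *Zfp750* (highest without D0 replicate 2). At W2 against D0 the range was −0.48 to 0.42 for *Ovol2* (highest without D0 replicate 1). At W6 against D0 it was −0.0062 to 0.74 for *Tfap2a* (lowest without W6 replicate 1) and −0.072 to 0.37 for *Grhl1* (lowest without W6 replicate 1, −0.0021 without D0 replicate 1). From W2 to W6 it was −0.62 to 0.12 for *Tfap2a* and −0.41 to 0.047 for *Tfap2c* (both highest without W6 replicate 2). From W6 to W12 it was −1.22 to 0.27 for *Grhl3* (highest without W6 replicate 1) and −0.050 to 1.05 for *Ovol1* (lowest without W6 replicate 2). For W12 against W1 it was −0.60 to 0.0038 for *Grhl3* (highest without W1 replicate 2), and against W2 −0.17 to 0.033 for *Zfp750* (highest without W2 replicate 1). The last was also 0.085 with median-ratio scaling and 0.12 with quantile normalization. None of these changes had passed the test, and the cause of each was not tested.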
